A study of Homo sapiens with 6 samples.

Results

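The ATP-binding cassette (ABC) genes of T24 cells, a long-established human bladder carcinoma line, were compared between a control hairpin and a hairpin against DLGAP5, which encodes a spindle microtubule protein of mitosis. Members were all rows of the deposited expression table that are marked as protein-coding and carry a symbol of the form ABCA to ABCG followed by a number. This gave 46 of 58825 rows, with 45 symbols, because ABCF2 has 2 gene identifiers. The shNC-1 group, labelled as wild type, and the shDLGAP5-1 group had 3 libraries each. Both hairpins were in T24 cells kept in the same serum-containing medium. By its title, the series is about a feedforward loop between DLGAP5 and the transcription factor E2F1 in bladder cancer, and its only comparison is that of the hairpins. DLGAP5 was targeted by 1 hairpin in 1 cell line. Whether the libraries of a group are separate cultures is not in the labels, so the p-values reflect the spread between these libraries, which may be technical.

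ABC proteins share a cassette that binds and hydrolyses ATP, and most use it to move a substrate across a membrane. The efflux pumps of the B, C and G subfamilies remove drugs and conjugated metabolites from cells and are known for drug resistance in cancers, including those of the bladder. Other members move lipids, sterols, peptides, vitamins and fatty acyl-CoA between the cytosol and organelles, regulate potassium channels, or, lacking a membrane domain, act on ribosomes.

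Levels are in FPKM, fragments per kilobase of transcript scaled to library size, and are listed in the order of the replicate numbers. DLGAP5 itself read 33, 32.7 and 29.7 FPKM in shNC-1, against 5.03, 4 and 7.51 FPKM in shDLGAP5-1, so its mean was 82.7% lower in the libraries with the hairpin against it. The smallest steps of the values place shNC-1 at a depth of about 21600000 to 27600000 fragments per library and shDLGAP5-1 at about 13700000 to 18200000. Keratin genes of simple epithelium (KRT7, KRT8, KRT18) and VIM, which encodes vimentin and was at 1133.8 to 1629.7 FPKM, were abundant in every library. Of the other listed genes of a mesenchymal state, CDH2 was at 30.7 to 38.4 FPKM with overlapping groups. FN1 rose from 225.5 to 245.8 FPKM in shNC-1 to 416.7 to 524.9 FPKM in shDLGAP5-1 (limma adjusted p = 0.00348). Other epithelial markers had lower levels. KRT19 was at 17.7 to 20.9 FPKM in shNC-1 and 10.6 to 11.1 FPKM in shDLGAP5-1 (limma adjusted p = 0.00438). EPCAM was at 0.765 to 1.18 FPKM, CDH1 at or below 0.167 FPKM and KRT5 at or below 3.95 FPKM. Of the urothelial regulator genes, PPARG was at 9.81 to 14.3 FPKM and FOXA1 at 3.44 to 5.27 FPKM, each with overlapping groups. GATA3 was at 0.258 to 0.355 FPKM in shNC-1 and 0.403 to 0.544 FPKM in shDLGAP5-1. The uroplakin genes that define mature urothelium stayed at or below 0.373 FPKM apart from UPK3A at 2.28 FPKM in shDLGAP5-1 replicate 3. That library stood apart in leukocyte genes. The 15 leukocyte markers, of which 12 reached 1 FPKM in some library and CD3E was listed at 0 in all, summed to 824.9 FPKM there and to 16.6 to 40 FPKM in the other 5 libraries, with LYZ, the lysozyme gene, at 686 FPKM and PTPRC, the pan-leukocyte CD45 gene, at 7.03 FPKM. PECAM1, listed for endothelium, was at 8.45 FPKM in shDLGAP5-1 replicate 3 and at or below 0.388 FPKM elsewhere. Control libraries also differed in single markers. The 5 fibroblast markers summed to 6.05 FPKM in shNC-1 replicate 1, with COL1A2 at 1.66 and DCN at 1.52 FPKM. Elsewhere they summed to 1.35 to 2.96 FPKM. KRT5 was at 3.95 FPKM in shNC-1 replicate 2 and at or below 0.373 FPKM elsewhere. Some listed leukocyte genes moved with the whole group. CD74, the invariant chain gene of antigen presentation, rose from 2.51 to 3 FPKM over the shNC-1 libraries to 10.5 to 14.8 FPKM over the shDLGAP5-1 libraries (limma adjusted p = 0.000912), and CD14 was at 0.128 to 0.232 against 0.468 to 0.536 FPKM. Their part in the ABC results was not tested, and log2 fold changes of the ABC genes without shDLGAP5-1 replicate 3 are given with the results. In bulk RNA, fewer cells of a type and less RNA per cell cannot be told apart.

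Genes reaching 1 FPKM in 3 or more libraries entered a limma fit of log2(FPKM + 1), with Benjamini-Hochberg adjustment over all genes tested and a threshold of 0.05 for a call. Of the 46 rows, 24 passed this filter, none of them through a single group, and 22 did not. Among the 24, 6 rose in shDLGAP5-1 (25% of those tested) and 7 fell (29.2%), and 11 did not pass, so 54.2% were called. Over all 12714 genes tested, 24.8% passed, 15.3% as higher and 9.52% as lower. The median log2 fold change was -0.06 for the 24 ABC genes and 0.03 for all tested genes. In 15 of the 24 genes (62.5%) the libraries of the groups did not overlap, against 43.9% of all tested genes. With 3 libraries against 3, the two-sided exact permutation test of a single gene cannot go below p = 0.1, the value it gave each gene without overlap.

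Among the genes that rose were ABCC3, ABCA2, ABCA7, ABCB9 and ABCD4, and those that fell were ABCC4, ABCB8, ABCD3, ABCC9, ABCE1, ABCF1 and ABCF2. ABCC3 and ABCC9 had the largest differences, the former upward and the latter downward. No other ABC gene that passed differed by 1 or more on the fitted scale, log2(FPKM + 1). That scale understates changes of low genes. In mean FPKM, ABCA2 was 2.25 times and ABCA7 2.04 times as high in shDLGAP5-1. Both genes listed here as lysosomal transporters, ABCB9 and ABCD4, rose, and 3 of the 4 tested genes for soluble translation proteins fell. Over all tested genes, 15.3% rose and 9.52% fell, and these classes are small. ABCA2, which rose, and ABCA5, which did not pass, also belong to lysosomal membranes but are grouped here with the lipid transporters. Without shDLGAP5-1 replicate 3, 6 ABC genes were higher and 6 lower, with ABCF1 alone losing its call (adjusted p = 0.0503). The total of 13 fell to 6, 6 and 8 when shNC-1 replicate 1, 2 or 3 was left out, with fewer libraries in each fit. Scaled to the same total FPKM, the libraries gave 4 higher and 8 lower of 25 ABC genes, ABCG2 being the added one, so 33.3% of the calls were upward against 46.2% as deposited. Over all genes the same scaling moved the upward share from 61.6% to 47.8%.

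**Figure D1:**
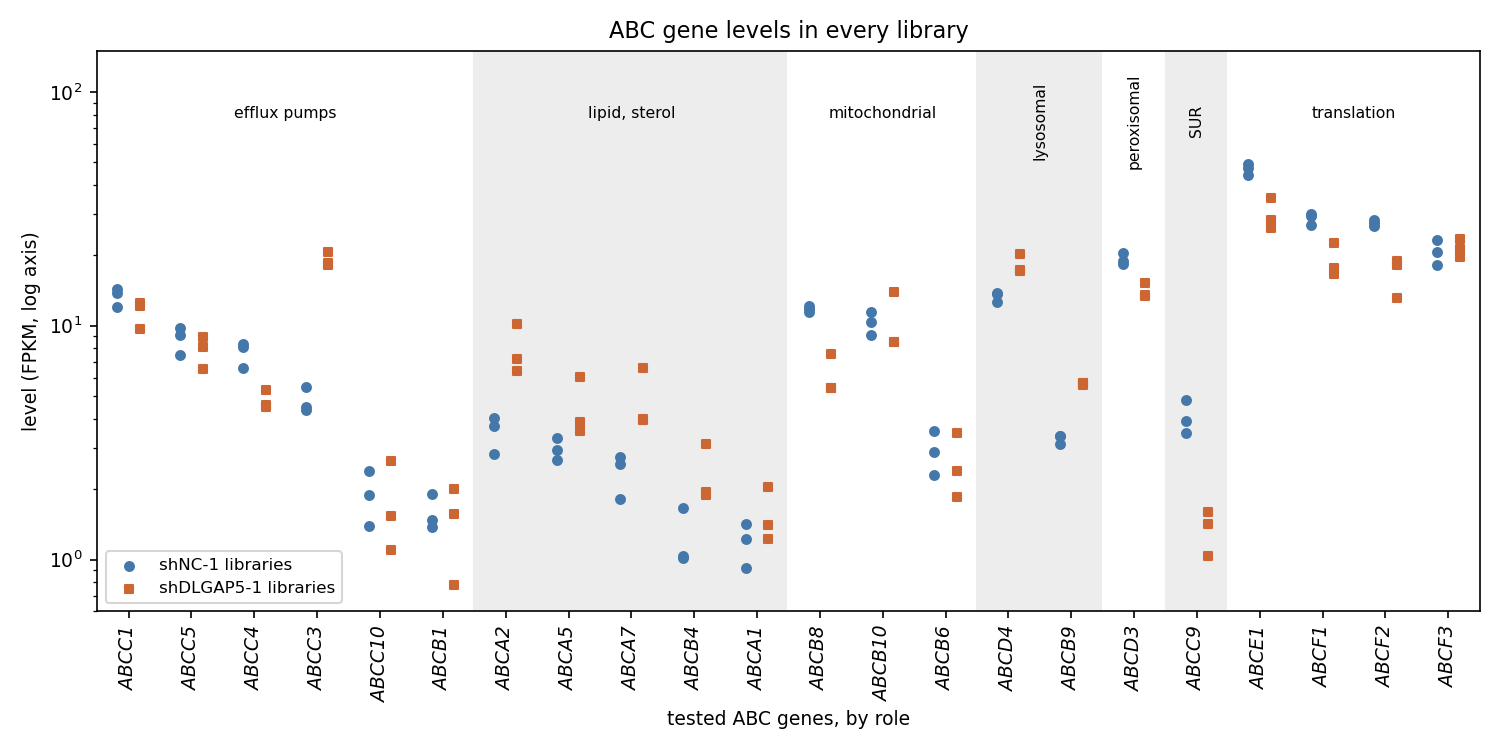
Level in FPKM (log axis) of 22 of the 24 tested ABC genes, ordered by role, with 1 point per library (circles, shNC-1; squares, shDLGAP5-1; SUR, sulfonylurea receptor). The square points of ABCC3 lie at 18.2 to 20.6 FPKM, above every shNC-1 library of that gene, and those of ABCC9 lie at 1.04 to 1.6 FPKM, below all of its shNC-1 libraries.

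RefSeq promoter windows (GRCh38.p14) were found for 35 of the 45 symbols. The 250 bases before the annotated start are shown for the gene that rose most and the gene that fell most among those with a window, ABCA2 and ABCC9, and for ABCD3 and ABCF2, a peroxisomal and a translation gene that fell. Sequences run 5′ to 3′ on the strand of the gene and end at the base before the start. Capitals mark matches to the motifs searched. ABCA2 (minus strand) is chr9:137028923-137029172, ABCC9 (minus strand) is chr12:21941427-21941676, ABCD3 (plus strand) is chr1:94418139-94418388 and ABCF2 (minus strand) is chr7:151227206-151227455.
ABCA2: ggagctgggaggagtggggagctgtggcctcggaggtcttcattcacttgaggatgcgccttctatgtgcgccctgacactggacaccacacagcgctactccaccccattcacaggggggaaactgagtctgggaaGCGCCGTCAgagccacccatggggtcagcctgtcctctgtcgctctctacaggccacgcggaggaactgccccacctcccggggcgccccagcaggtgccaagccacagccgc
ABCC9: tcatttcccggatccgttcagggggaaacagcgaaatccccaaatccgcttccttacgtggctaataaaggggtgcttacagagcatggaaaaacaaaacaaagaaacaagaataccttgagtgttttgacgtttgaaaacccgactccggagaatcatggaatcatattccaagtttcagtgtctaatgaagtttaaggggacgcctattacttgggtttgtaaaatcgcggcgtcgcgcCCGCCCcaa
ABCD3: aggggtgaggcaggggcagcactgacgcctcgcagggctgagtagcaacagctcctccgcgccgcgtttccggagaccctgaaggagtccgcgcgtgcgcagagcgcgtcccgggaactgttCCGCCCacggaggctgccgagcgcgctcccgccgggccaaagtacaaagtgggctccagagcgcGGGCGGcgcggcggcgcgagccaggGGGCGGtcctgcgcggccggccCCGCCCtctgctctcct
ABCF2: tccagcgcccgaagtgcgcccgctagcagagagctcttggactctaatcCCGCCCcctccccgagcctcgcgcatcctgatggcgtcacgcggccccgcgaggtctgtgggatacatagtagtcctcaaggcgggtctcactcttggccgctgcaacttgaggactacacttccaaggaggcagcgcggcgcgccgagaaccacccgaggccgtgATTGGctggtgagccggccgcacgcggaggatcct

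In the windows shown, the ABCA2 promoter held the core of the antioxidant response element as GCGCCGTCA, the reverse complement of the searched letters, beginning 113 bases before the start. The ABCC9 window had a single GC box, 9 bases before a RefSeq start that lies 1103 bases inside the gene's first base in the deposited table. The ABCD3 window held 4 GC boxes, on either strand, and the ABCF2 window had a GC box at 201 bases and a CCAAT box, as ATTGG, at 35 bases.

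Motifs were searched on both strands in all windows, and a match is a description of letters only. The antioxidant response element core, TGACNNNGC, was found in 2 of the 4 windows of ABC genes that rose (ABCA2 and ABCD4), 2 of the 7 that fell (ABCC4 and ABCF1) and 1 of the 8 that did not pass (ABCB6), and in 12.2% of the windows of all tested genes. GC boxes, GGGCGG, were in 3 of 4, 5 of 7 and 7 of 8 windows respectively, against 69.1% of the windows of tested genes. The ABCB9 window, counted among those of genes that rose, lies at a RefSeq start 15186 bases from the gene's first base in the deposited table. For ABCC10 this distance was 497 bases. The CCAAT box was in ABCA7 among the genes that rose, in ABCB8 and ABCF2 among those that fell, in ABCB6, and in 35.7% of windows of tested genes. An E2F site, TTTCCCGC, was in the ABCB6 window and in no other window of a tested ABC gene, with a share of 2.4% in tested genes. The E box CACGTG was in ABCF1, ABCA1 and ABCB6 (9.03% of tested genes) and TATAAA in ABCA1 and ABCC5 (4.9%). Neither the AP-1 site TGACTCA nor the core of the interferon-stimulated response element, GAAANNGAA, was in a window of a tested ABC gene. They were in 2.5% and 5.34% of windows of tested genes. An AP-1 site could overlap the first bases of an antioxidant response element, and a CACGTG or GC box could overlap other matches. Median G and C content was 67.8% in the windows of the genes that rose, 66.4% in those that fell, 64.6% in the tested genes that did not pass and 47.6% in the untested members, against 65.2% for all tested genes. The medians for genes that rose and genes that fell were close to each other and to that of tested genes at large. They rest on 4 and 7 windows, with ranges of 58.0% to 75.6% and 46.0% to 80.4%.

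Among the drug and organic anion efflux pumps, ABCC3 rose, ABCC4 fell, ABCB1 and ABCC1, genes of classical multidrug pumps, did not pass the test, and ABCG2 was under the filter. ABCC3 (ENSG00000108846, chr17:50634777-50692253 in the deposited GRCh38 coordinates) encodes a pump of the basolateral membrane that exports glucuronides and other organic anions. It stood at 5.46, 4.35 and 4.5 FPKM in the shNC-1 libraries and at 18.6, 20.6 and 18.2 FPKM in the shDLGAP5-1 libraries. All shDLGAP5-1 libraries were far above all shNC-1 libraries, and the spread within each group was small beside the gap. The mean level rose 4.02 times, from 4.77 ± 0.603 to 19.2 ± 1.29 FPKM (SD, n = 3 each). The log2 fold change was 1.81 (95% interval 1.52 to 2.09, limma adjusted p = 0.000569). The call held in all 15 alternative settings, with log2 fold changes of 1.71 to 1.99.

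ABCC4 (ENSG00000125257, chr13:95019835-95301475), whose pump exports cyclic nucleotides and prostaglandins, was at 8.12, 8.32 and 6.58 FPKM in shNC-1 and at 4.47, 4.57 and 5.29 FPKM in shDLGAP5-1. The groups did not overlap, with shNC-1 replicate 3 the closest to the other group. Its mean was 37.8% lower (log2 fold change -0.58, 95% interval -0.89 to -0.27, limma adjusted p = 0.02). The call was lost without shNC-1 replicate 1 (adjusted p = 0.0802), shNC-1 replicate 2 (0.0887) or shDLGAP5-1 replicate 2 (0.0656).

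ABCC1, the pump of glutathione conjugates and leukotriene C4, was the highest pump gene in shNC-1, at 14.4, 13.8 and 12 FPKM, and was at 9.65, 12.5 and 12.2 FPKM in shDLGAP5-1. The groups overlapped, and the log2 fold change of -0.21 had an interval of -0.53 to 0.11. ABCC5, which also exports cyclic nucleotides, was at 9.13, 9.78 and 7.5 FPKM against 6.54, 8.08 and 8.99 FPKM (log2 fold change -0.15, interval -0.51 to 0.21). ABCB1, which encodes P-glycoprotein, was low, at 1.9, 1.48 and 1.38 FPKM in shNC-1 and 0.775, 1.57 and 2.01 FPKM in shDLGAP5-1. Its highest and lowest libraries were both in the shDLGAP5-1 group. The interval of its log2 fold change, -0.59 to 0.38, allows a difference in either direction, and log2(FPKM + 1) understates changes of genes this low. ABCC10, a pump that can carry taxanes, was at 2.38, 1.88 and 1.39 against 1.1, 1.53 and 2.64 FPKM (interval -0.63 to 0.45). ABCB1 rested on about 50.7 to 196 fragments per library and ABCC10 on about 76.6 to 265, whereas ABCC3 had about 625 to 1900.

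ABCG2, the breast cancer resistance protein gene, was under the filter, at 0.997, 1.32 and 1.2 FPKM in shNC-1 and 0.641, 0.793 and 0.608 FPKM in shDLGAP5-1. Its groups did not overlap, and its call depended on the setting. With no filter it did not pass (log2 fold change -0.37, adjusted p = 0.179), whereas with the libraries scaled to the same total it entered the fit and passed as lower (-0.42, adjusted p = 0.0489). ABCC2, a pump of apical membranes, spanned 0.235 to 1.22 FPKM and ABCC12 spanned 0.542 to 1.11 FPKM, each with overlapping groups. ABCC6 and ABCC11 were at or below 0.519 FPKM and 0.0413 FPKM.

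The order of the pumps by level differed between the groups. In shNC-1 the mean levels ran from ABCC1 (13.4 ± 1.24 FPKM) through ABCC5 (8.8 ± 1.17) and ABCC4 (7.68 ± 0.955) to ABCC3 (4.77 ± 0.603), and the libraries of ABCC5 and ABCC4 overlapped. In shDLGAP5-1, ABCC3 came first at 19.2 ± 1.29 FPKM, followed by ABCC1 at 11.5 ± 1.58, ABCC5 at 7.87 ± 1.24 and ABCC4 at 4.77 ± 0.447 FPKM, and none of these 4 shared its range of libraries with its neighbour. Below them, ABCC10 and ABCB1 overlapped in both groups. ABCC3 made up 11.7% ± 1.46 of the summed pump FPKM in shNC-1 and 39.5% ± 4.29 in shDLGAP5-1, while the share of ABCC4 went from 18.7% ± 0.384 to 9.83% ± 0.895 (SD, n = 3 each). The shares of ABCC1 and ABCC5, which did not pass, went from 32.7% to 23.4% and from 21.4% to 16.1%. A share falls when another pump in the sum rises. The summed level of the 11 pumps was 44, 43.6 and 35.7 FPKM in shNC-1 and 42.6, 51.9 and 51.9 FPKM in shDLGAP5-1, which overlapped.

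**Figure D2:**
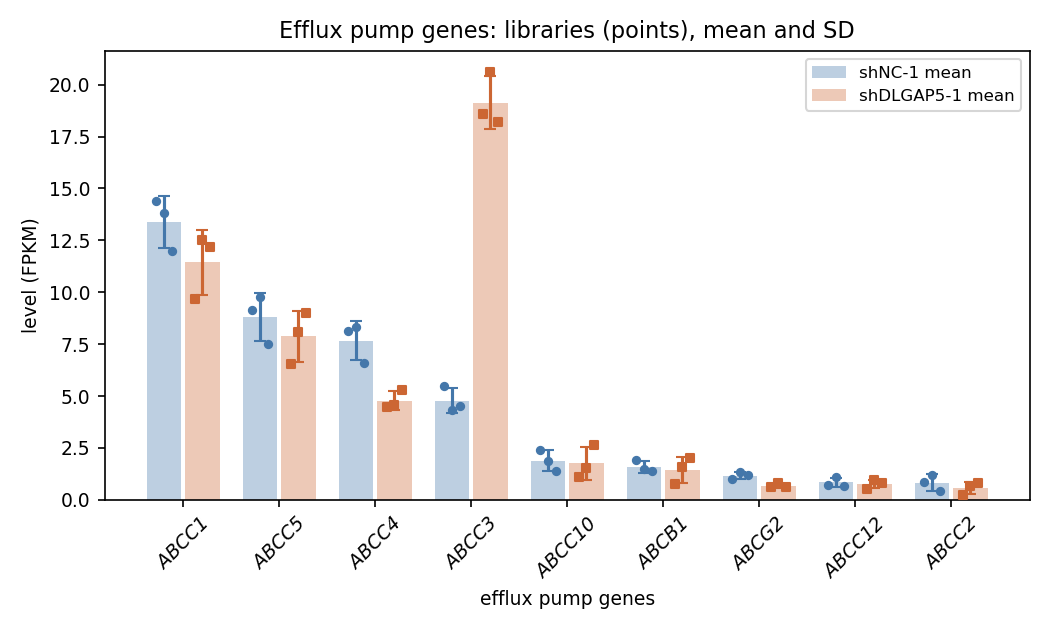
FPKM of 9 of the 11 efflux pump genes (ABCC6 and ABCC11, the lowest, are not drawn), as bars (mean), error bars (SD, n = 3) and points (libraries), for shNC-1 (blue circles) and shDLGAP5-1 (orange squares). ABCC3 stands below ABCC1, ABCC5 and ABCC4 in shNC-1, at 4.77 FPKM, and above all of them in shDLGAP5-1, at 19.2 FPKM.

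Of the 19 rows grouped here as lipid and sterol transporters, only 5 entered the fit, of which ABCA2 and ABCA7 rose and none fell. Over all tested genes, 15.3% rose and 9.52% fell. ABCA2 (ENSG00000107331, chr9:137007234-137028922), a transporter of endolysosomes involved in sterol and sphingolipid handling, was at 4.04, 3.72 and 2.83 FPKM in shNC-1 and at 10.2, 6.4 and 7.22 FPKM in shDLGAP5-1. Every shDLGAP5-1 library was above every shNC-1 library, with replicate 1 the highest. The mean was 2.25 times as high (log2 fold change 0.97, 95% interval 0.52 to 1.41, limma adjusted p = 0.0125), and the call held in all 15 alternatives.

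ABCA7 (ENSG00000064687, chr19:1040101-1065572), a phospholipid transporter, was at 1.82, 2.55 and 2.75 FPKM against 4, 3.95 and 6.59 FPKM. The highest value was in shDLGAP5-1 replicate 3, the library with leukocyte transcripts, and without it the log2 fold change went from 0.77 (95% interval 0.29 to 1.26, adjusted p = 0.0339) to 0.57 (adjusted p = 0.0493). ABCA7 was not called without shNC-1 replicate 1 (0.65, adjusted p = 0.109), shNC-1 replicate 2 (0.82, 0.0813), shNC-1 replicate 3 (0.86, 0.061) or shDLGAP5-1 replicate 2 (0.88, 0.0574), nor with the libraries scaled to the same total (0.69, adjusted p = 0.067), with quantile normalization (0.0567) or with no filter (0.108).

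ABCA5, a lysosomal member of the A subfamily, and ABCB4, the phosphatidylcholine transporter known from bile, did not pass, although neither overlapped between groups. ABCA5 was at 3.3, 2.94 and 2.67 against 3.87, 3.53 and 6.06 FPKM (log2 fold change 0.44, interval 0.00 to 0.88, adjusted p = 0.127). Its highest library was again shDLGAP5-1 replicate 3, and the value without it was 0.25. With the trend of each library on transcript length removed, ABCA5 passed (0.48, adjusted p = 0.041). ABCB4 was at 1.02, 1.04 and 1.66 against 3.12, 1.95 and 1.88 FPKM (0.56, interval 0.11 to 1.00, adjusted p = 0.07). ABCA1, which exports cholesterol and phospholipid to apolipoprotein A-I, was at 1.42, 1.22 and 0.919 against 1.22, 1.41 and 2.05 FPKM, and its groups overlapped (0.22, interval -0.16 to 0.60). The ABCA1 value was 0.09 without shDLGAP5-1 replicate 3, its highest library, and 0.03 with quantile normalization.

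The other 14 rows of this grouping were below the filter. ABCA10 reached 1.13 FPKM and ABCA3, the surfactant lipid transporter, reached 0.804 FPKM, each higher in all shDLGAP5-1 libraries than in any shNC-1 library. ABCA13 went the other way, at 0.0796 to 0.172 FPKM in shNC-1 and 0.0108 to 0.0169 FPKM in shDLGAP5-1. ABCG1, a sterol exporter, was at 0.00151 to 0.0223 against 0.0581 to 0.122 FPKM. Without a filter, none of these 4 passed (adjusted p of 0.278, 0.177, 0.0648 and 0.0839). ABCA4, ABCA6, ABCA8, ABCA9, ABCA12 and ABCG4 stayed at or below 0.167 FPKM, and ABCB5, ABCB11, ABCG5 and ABCG8 were listed at 0 in every library. The place of ABCB5 in this class, and not among the efflux pumps, is a choice of the grouping. As a sum over all 19, the level was 12.5, 12.4 and 11.8 FPKM in shNC-1 and 23.7, 19.7 and 25.4 FPKM in shDLGAP5-1, without overlap.

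Both genes placed in the lysosomal class, ABCB9 and ABCD4, rose, beside 15.3% of all tested genes. ABCB9 (ENSG00000150967, chr12:122920951-122981649) moves peptides from the cytosol into lysosomes. Its level was 3.37, 3.36 and 3.12 FPKM in shNC-1 and 5.56, 5.68 and 5.71 FPKM in shDLGAP5-1, with little spread within either group. The shDLGAP5-1 mean of 5.65 ± 0.0786 FPKM was 1.72 times the shNC-1 mean of 3.28 ± 0.141 FPKM (SD, n = 3 each). The log2 fold change was 0.63 (95% interval 0.39 to 0.88, limma adjusted p = 0.00718), and the call held in all 15 alternatives. ABCB9 overlaps OGFOD2 (log2 fold change 0.48, adjusted p = 0.0275) over 5464 bases and ARL6IP4 (-0.04) over 1590 bases on the other strand, and the use of strand in counting is not given in the sources used here, so reads of these genes cannot be told apart where they overlap.

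ABCD4 (ENSG00000119688, chr14:74285269-74303055), which works with LMBRD1 to release cobalamin from lysosomes, was at 12.6, 13.7 and 13.8 FPKM in shNC-1 and 20.2, 17.1 and 17.3 FPKM in shDLGAP5-1. The groups did not overlap, and shDLGAP5-1 replicate 1 was the highest (log2 fold change 0.42, 95% interval 0.15 to 0.68, limma adjusted p = 0.0345). This was among the least stable calls. It was lost without shNC-1 replicate 1 (adjusted p = 0.125), 2 (0.108) or 3 (0.0748), without shDLGAP5-1 replicate 1 (0.0607) or 2 (0.065), with no filter (0.0571), and with the libraries scaled to the same total (0.31, adjusted p = 0.0864) or by median ratio (0.0552). LMBRD1 itself rose, from 4.22, 4.38 and 4.12 to 7.01, 5.86 and 6.8 FPKM (0.53, adjusted p = 0.0181), a call lost without any 1 of the shNC-1 libraries and with the libraries scaled to the same total.

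Of the 4 mitochondrial transporters, ABCB8 fell, and ABCB10 and ABCB6 did not pass. ABCB8 (ENSG00000197150, chr7:151028422-151047782), an inner membrane protein linked to mitochondrial iron export, was at 11.8, 12.2 and 11.5 FPKM in shNC-1 and at 5.44, 5.43 and 7.56 FPKM in shDLGAP5-1. The groups were well separated, with shDLGAP5-1 replicate 3 the nearest to the controls. The mean was 48.1% lower (log2 fold change -0.86, 95% interval -1.19 to -0.52, limma adjusted p = 0.00718), and the call held in all 15 alternatives.

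ABCB10, which supports haem synthesis, was at 11.4, 10.4 and 9.1 against 8.48, 8.49 and 13.9 FPKM. Its shDLGAP5-1 libraries split, with replicate 3 above and replicates 1 and 2 below the shNC-1 libraries, and the log2 fold change was -0.03 with all libraries and -0.25 (adjusted p = 0.214) without replicate 3. ABCB6, a porphyrin transporter, was at 2.88, 2.29 and 3.54 against 3.46, 2.38 and 1.85 FPKM (-0.14, interval -0.61 to 0.33).

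Of the peroxisomal transporters, ABCD3 fell. ABCD3 (ENSG00000117528, chr1:94418389-94518666), which imports branched-chain acyl-CoA and bile acid intermediates, was at 18.9, 20.5 and 18.3 FPKM in shNC-1 and at 13.4, 13.6 and 15.2 FPKM in shDLGAP5-1. The groups did not overlap, and the mean was 26.9% lower (log2 fold change -0.43, 95% interval -0.68 to -0.18, limma adjusted p = 0.0269). Leaving out any 1 library other than shDLGAP5-1 replicate 3 ended the call, with adjusted p of 0.0869, 0.122 and 0.0562 without shNC-1 replicates 1 to 3 and 0.0519 and 0.0783 without shDLGAP5-1 replicates 1 and 2. ABCD2, another peroxisomal transporter, was at or below 0.032 FPKM.

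ABCC9 fell most of all members. It encodes SUR2, a sulfonylurea receptor that is the regulatory subunit of ATP-sensitive potassium channels and not a pump. The gene (ENSG00000069431, chr12:21797401-21942529) was at 4.81, 3.91 and 3.49 FPKM in shNC-1 and at 1.04, 1.42 and 1.6 FPKM in shDLGAP5-1. The lowest shNC-1 library was above the highest shDLGAP5-1 library by more than the range of either group. The mean was 66.8% lower, from 4.07 ± 0.671 to 1.35 ± 0.287 FPKM (SD, n = 3 each), and the log2 fold change was -1.11 (95% interval -1.47 to -0.75, limma adjusted p = 0.00381). The call held in the 14 alternatives in which the gene was tested, with log2 fold changes of -1.53 to -1.01, and the -1.53 came with a pseudocount of 0.1. ABCC8, the gene of the other sulfonylurea receptor, was at 0.211 FPKM in shNC-1 replicate 1 and at or below 0.0201 FPKM elsewhere.

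The soluble ABC proteins of translation had the highest mean levels of all members in shNC-1. Of their 4 tested genes 3 fell, beside 9.52% of all tested genes. ABCE1 (ENSG00000164163, chr4:145098288-145129524), which splits ribosomes after termination, was at 49.2, 47.3 and 44.3 FPKM in shNC-1 and at 28.3, 26.2 and 35.1 FPKM in shDLGAP5-1. The groups did not overlap, and shDLGAP5-1 replicate 3 was the nearest to the controls. Its mean was 36.4% lower (log2 fold change -0.64, 95% interval -0.95 to -0.34, limma adjusted p = 0.0138). ABCE1 overlaps OTUD4 (-0.50, adjusted p = 0.0784) on the other strand over 18687 bases.

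ABCF1 (ENSG00000204574, chr6:30571393-30597179), which associates with the initiation factor eIF2 and ribosomes, was at 27, 29.5 and 30 against 16.7, 22.6 and 17.7 FPKM. Its mean was 34% lower (log2 fold change -0.59, 95% interval -0.90 to -0.27, limma adjusted p = 0.0213). ABCF2 (ENSG00000033050, chr7:151211484-151227205) was at 26.8, 27.5 and 28.4 against 13.1, 18.2 and 18.9 FPKM. Its mean was 39.4% lower (log2 fold change -0.71, 95% interval -1.05 to -0.36, limma adjusted p = 0.0156). A second identifier for ABCF2, ENSG00000285292, overlaps it over 15683 bases and held 0.395 to 1.4 FPKM, so reads may be split between the rows, and this row was under the filter.

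Calls for these genes depended on single libraries. ABCE1 was lost without shNC-1 replicate 1 (adjusted p = 0.0565) or 2 (0.0576). ABCF2 was lost without shNC-1 replicate 1 (0.0512), 2 (0.0588) or 3 (0.0523). ABCF1 was lost with any shNC-1 library left out (0.055, 0.0799 and 0.0664 for replicates 1 to 3), without shDLGAP5-1 replicate 3 (0.0503) and with no filter (0.0547). All remained lower in those fits. ABCF3, a relative of yeast GCN20, which acts in the response to amino acid shortage, did not pass, at 18.2, 20.7 and 23.3 against 21.3, 19.6 and 23.4 FPKM (0.05, interval -0.25 to 0.35). The summed level of the role was 122, 125.4 and 126.5 FPKM in shNC-1 and 80.8, 87.5 and 95.7 FPKM in shDLGAP5-1, without overlap.

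**Figure D3:**
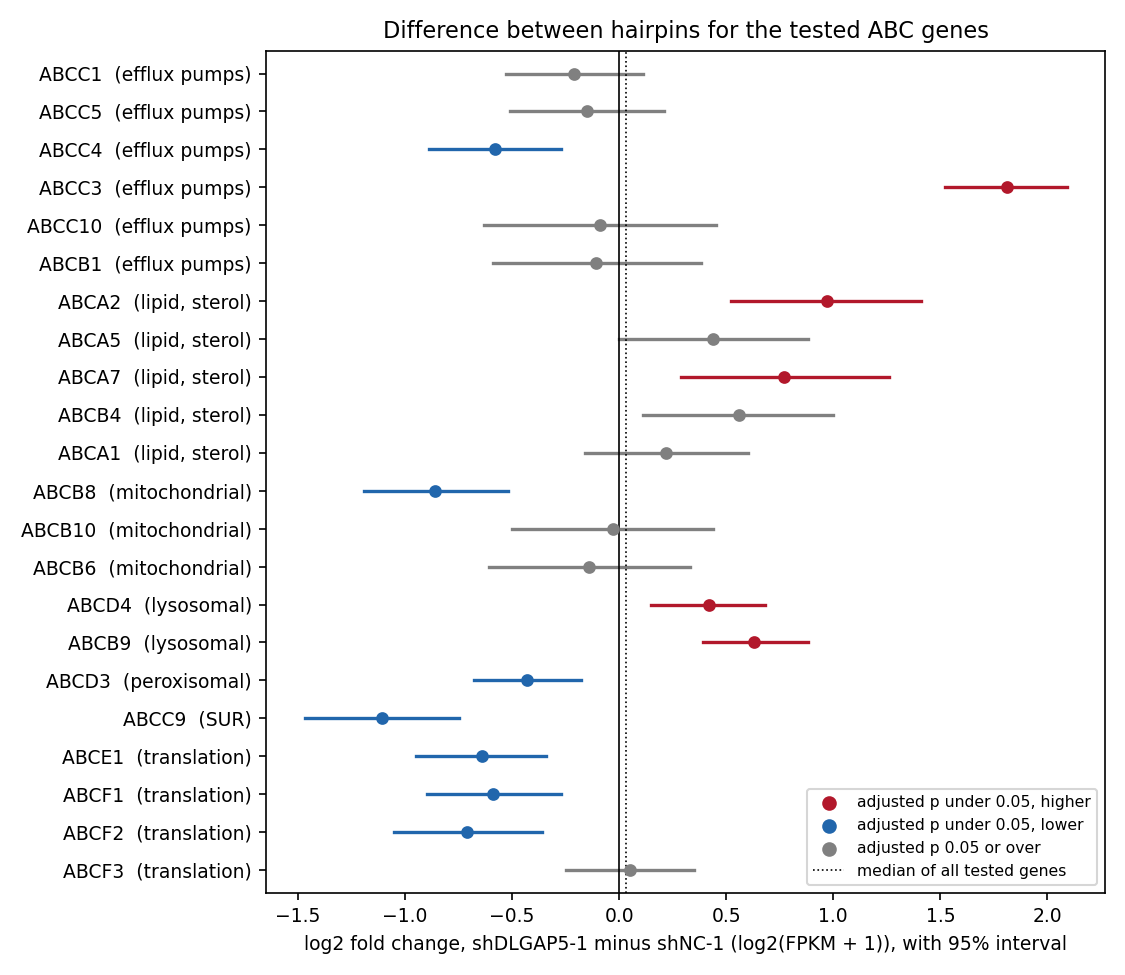
Log2 fold change, shDLGAP5-1 minus shNC-1 on log2(FPKM + 1), of 22 of the 24 tested ABC genes with its 95% interval, coloured by limma adjusted p (threshold 0.05) and direction. The dotted line is the median of all tested genes, 0.03; ABCC3 (1.81) and ABCC9 (-1.11) lie at the ends.

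The stability of the 13 calls differed between genes. ABCC3, ABCA2, ABCB9, ABCB8 and ABCC9 kept their call in every alternative in which they were tested, and 7 genes lost it in at least 1. No gene that was called changed direction in any alternative. Without shDLGAP5-1 replicate 3, the log2 fold change was 1.84 for ABCC3, 1.02 for ABCA2, 0.63 for ABCB9 and 0.45 for ABCD4. Of the genes that fell, it was -1.18 for ABCC9, -0.80 for ABCF2, -0.76 for ABCE1, -0.65 for ABCC4, -0.54 for ABCF1 and -0.48 for ABCD3, and ABCB8 passed as lower with an adjusted p of 0.00392. Of the genes that did not pass, it was 0.65 for ABCB4, -0.31 for ABCC10, -0.27 for ABCB1, -0.26 for ABCC1, -0.24 for ABCC5, 0.01 for ABCB6 and -0.01 for ABCF3.

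**Figure D4:**
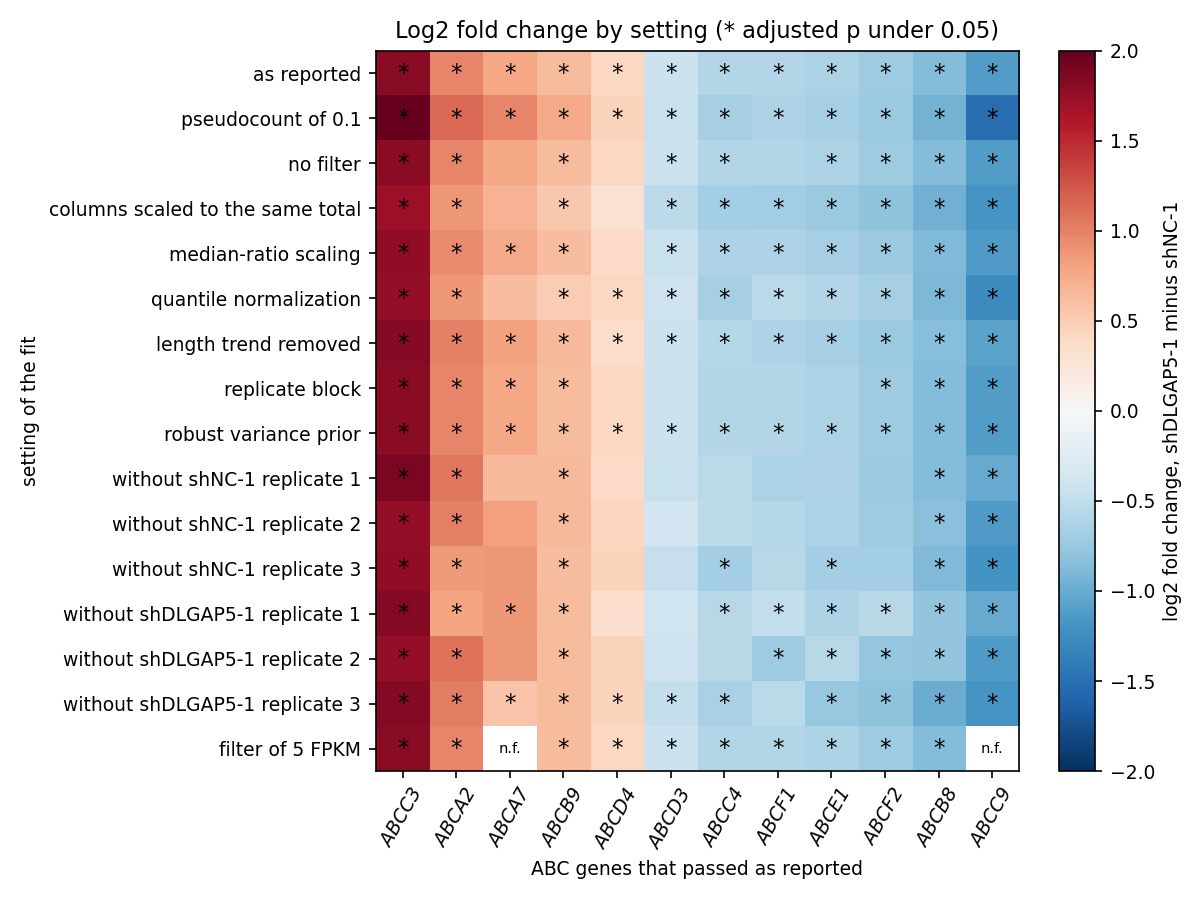
Log2 fold change (colour) of 12 of the 13 ABC genes that passed, in columns, under the reported setting and the 15 alternatives, in rows; an asterisk marks an adjusted p under 0.05, and n.f. marks a gene not in the fit because it was under the stricter filter. ABCC3, ABCA2, ABCB9 and ABCB8 carry an asterisk in every row.

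The wider ABC system was followed through 66 symbols for ABC proteins with other names, regulators, substrate-making enzymes, partners and scaffolds, of which 65 were in the table. Of the 53 rows tested, 8 rose and 8 fell, or 30.2% together against 24.8% of all tested genes, and the median over the 53 was -0.05 on the log2 scale. TAP1 and TAP2, the ABC genes of the peptide transporter for antigen presentation, split. TAP1 went from 12.3, 13.2 and 12.3 to 17.9, 21.5 and 17.4 FPKM (0.54, adjusted p = 0.0171), and TAP2 fell from 12.5 ± 2.38 to 7.51 ± 0.669 FPKM (SD, n = 3 each; -0.66, adjusted p = 0.0209). Neither call held without shNC-1 replicate 1, shNC-1 replicate 2 or shDLGAP5-1 replicate 2.

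Of 13 listed regulators of ABC genes, 10 were tested, of which 2 rose and 1 fell. Over all tested genes, 15.3% rose and 9.52% fell. AHR, the aryl hydrocarbon receptor, rose from 2.77, 2.65 and 1.93 to 5.11, 4.1 and 5.02 FPKM (0.74, adjusted p = 0.0131). TFEB, a regulator of lysosomal genes, rose from 1.22 ± 0.0911 to 3.05 ± 0.317 FPKM (SD, n = 3 each; 0.87, adjusted p = 0.00348). YBX1, the Y-box protein studied as a regulator of ABCB1, fell from 442.0 ± 12.6 to 329.4 ± 7.71 FPKM (SD, n = 3 each; -0.42, adjusted p = 0.0231). NFE2L2, the factor of the antioxidant response (0.27, adjusted p = 0.273), and the liver X receptor genes NR1H2 (0.37) and NR1H3 (-0.05) did not pass.

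Of 11 tested enzymes that make or process glutathione and other conjugates, 2 rose and 1 fell. Over all tested genes, 15.3% rose and 9.52% fell. GCLM, a subunit of the enzyme that limits glutathione synthesis, fell (-0.68, adjusted p = 0.00507), whereas MGST3 (0.62, adjusted p = 0.0122) and GSTA4 (0.48, adjusted p = 0.0304), which encode glutathione transferases, rose. In sterol handling, NPC1, the lysosomal cholesterol exporter, fell (-0.58, adjusted p = 0.0133), as did SOAT1, which esterifies cholesterol (-0.41, adjusted p = 0.032). In the mitochondrial group, SLC25A37, the iron importer mitoferrin-1, rose from 25.4 ± 2.43 to 45.5 ± 1.53 FPKM (SD, n = 3 each; 0.82, adjusted p = 0.00306), and ISCU, a scaffold for iron-sulfur clusters, rose (0.47, adjusted p = 0.0313).

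None of the 5 peroxisomal partners passed, beside 24.8% of all tested genes. Of 8 translation partners, only ETF1, the release factor that acts before ABCE1, fell (-0.49, adjusted p = 0.0275), beside 9.52% of all tested genes. EZR, which links membrane proteins to actin, fell from 145.8 ± 2.9 to 83.2 ± 4.54 FPKM (SD, n = 3 each; -0.80, adjusted p = 0.00231), and its adaptor SLC9A3R1 fell (-0.68, adjusted p = 0.0146). The calls of AHR, TFEB, GCLM, SLC25A37 and EZR held in every alternative in which the gene was tested. All of the other 11 calls were lost without shNC-1 replicate 2, and all but those of NPC1 and SLC9A3R1 without shNC-1 replicate 1. YBX1, ETF1, ISCU, LMBRD1 and TAP1 were also lost without shNC-1 replicate 3, as were SOAT1, YBX1, ETF1, ISCU, TAP1, GSTA4 and TAP2 without shDLGAP5-1 replicate 2. Without shDLGAP5-1 replicate 3, the library with leukocyte transcripts, 7 rose and 10 fell, and GSTA4 was the only call lost.

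Several ABC genes lie on the same chromosome close to each other. ABCB8, which fell, and the second ABCF2 identifier, ENSG00000285292, which was not tested, are 160.1 kb apart on chromosome 7. The ABCF2 row that fell, ENSG00000033050, overlaps that identifier and lies slightly further from ABCB8. ABCC5 and ABCF3, neither of which passed, are 168.1 kb apart on chromosome 3. ABCB1 and ABCB4 are 23.2 kb apart on chromosome 7. On chromosome 17, ABCA8, ABCA9, ABCA6, ABCA10 and ABCA5 follow each other among the members, and ABCA10 and ABCA5 overlap over 536 bases on the same strand, so part of the low level of ABCA10 could not be told from that of ABCA5. ABCC1 and its relative ABCC6 are 5.9 kb apart on chromosome 16, the former at 9.65 to 14.4 FPKM and the latter at or below 0.519 FPKM.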

How the data were processed

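The authors deposited 1 table of normalized expression, whose values show FPKM, with no unit in its header. Per the labels' protocols, total RNA went into a kit for mRNA libraries. The aligner, the quantifier, the annotation and whether counting used strand were not given in the sources used here. GENCODE 29 holds 58552 of its identifiers, 87.1% with equal GRCh38 coordinates. Of the 46 ABC rows, only 21 had equal coordinates, and GENCODE 29 transcript lengths were used for their fragment estimates and the length trend. Columns marked NC were matched to shNC-1, and those with a construct number to shDLGAP5-1, the only other group. FPKM depends on length and library total, so a few abundant transcripts shift all others, and an exact 0 can be a failed estimate. Depth was approximated from the smallest steps of low single-exon genes.

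The 12714 genes that reached 1 FPKM in 3 or more libraries were fitted with limma 3.58.1 (trended variance, R 4.3.3) on log2(FPKM + 1), which understates changes of low genes. Tested members are named, except some genes that are not reported here, untested members by range, and listed pathway genes where they passed. Members and lists were chosen with earlier results of these data known. The settings varied were the pseudocount (0.1), the filter (none, or 5 FPKM), 3 scalings, removal of a length trend (lowess, span 0.3), a replicate block, a robust prior, and each library left out. Protein sequences were not analysed here.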

Additional observations from a re-analysis of the deposited data

How the results depend on the processing

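Of 351 values under alternatives of the 24 ABC genes tested as reported, 301 kept their direction and side of the threshold, 38 lost a call, 1 gained a call and 11 changed sign. Besides these, ABCG2, under the filter as reported, passed as lower with the same total (-0.42, adjusted p = 0.0489). The sign changes were all in genes without a call. With each library left out in turn, ABCB1 ranged from -0.27 to 0.11, ABCC10 from -0.31 to 0.09, ABCB10 from -0.25 to 0.08, ABCB6 from -0.32 to 0.01 and ABCF3 from -0.03 to 0.14 in log2 fold change. ABCF3 was also -0.05 with the same total and -0.00 with the length trend removed. The cause was not tested. Over all genes, 3155 calls (1944 higher, 1211 lower) became 2071, with 769 lower, with no filter. With a filter of 5 FPKM 1168 were higher, with the same total 1261 were higher, and with the length trend removed 1890 were lower. The upward share of 61.6% became 52.0% with the filter of 5 FPKM, 50.8% with quantile normalization and 50.0% with the length trend removed. Scaling to the same total moved the median of all genes by -0.10. Leaving out 1 library gave 1326 to 2806 calls over all genes (879 to 1489 higher, 447 to 1317 lower), 6 to 12 among ABC genes (4 to 6 higher, 2 to 6 lower) and 5 to 17 in the wider list (3 to 7 higher, 2 to 10 lower), from fewer samples. In the wider list, 5 were lower with no filter, 5 higher with a filter of 5 FPKM and 4 higher with the same total, where 30.8% of calls were upward against 50.0% as deposited and 36.8% with the length trend removed. With the replicate block, 1464 genes passed (951 higher, 513 lower), with 8 ABC genes (5 higher, 3 lower) and 7 of the wider list (3 higher, 4 lower). The ABC calls lost with the block were ABCC4 (adjusted p = 0.0785), ABCD4 (0.122), ABCD3 (0.107), ABCE1 (0.0542) and ABCF1 (0.0558). Libraries with the same number correlated in their deviations at -0.155, 0.021 and -0.157, and 0 of 6 correlated best with their own number. These values showed no pairing by number, but with 3 libraries per group they cannot exclude a weak shared batch. ABCB1, ABCC10, ABCB4 and ABCB6 rested on the fewest fragments.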

Other observations

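The table also held 16 rows with an ABC symbol that are pseudogenes or antisense genes and so are not protein-coding. ABCA11P, a pseudogene on chromosome 4, was at 2.371, 1.659 and 1.473 FPKM in shNC-1 and at 1.266, 1.437 and 1.841 FPKM in shDLGAP5-1, with overlapping groups. The other rows stayed at or below 0.103 FPKM. Both pseudogenes of ABCF2 were listed at 0 in every library, as was the antisense gene ABCC5-AS1.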
